A study of Mus musculus with 12 samples.

Results

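The 6 genes examined here encode the RUNX transcription factors (Runx1, Runx2 and Runx3), their shared partner (Cbfb) and a pair of co-repressors of the ETO family (Cbfa2t2 and Cbfa2t3). They were read in ATAC-seq peak lists, which give the positions of open chromatin cut by the Tn5 transposase. The cells were C2C12, an established mouse myoblast line, either wild type (WT) or knocked out for Runx1 (KO). Both genotypes were proliferating at day 0 in medium that held 20% serum (FBS), with 3 samples each of the 12 in the series. The remaining samples, both genotypes at day 2 of differentiation, were not analysed here. A peak belonged to a gene when its centre lay in the gene body or within 10 kb of it. By that rule 49 of the 34118 peaks of the WT list and 35 of the 27187 peaks of the KO list were members. The labels do not say which stretch of Runx1 was edited, whether the KO line is 1 clone, or whether the samples of a genotype came from separate cultures. The peak names carry the label of replicate 1 only, so each list holds the intervals and values of 1 library per genotype and nothing below has a replicate error or a test. Sequencing depth is unknown, and whether it differed between the lists was not tested.

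RUNX proteins bind DNA through the Runt domain, and the CBFβ protein encoded by Cbfb holds that domain on DNA without touching DNA itself. Each mammalian RUNX gene is transcribed from a distal promoter, P1, and a proximal promoter, P2, which give proteins with different N termini. Runx1 is a regulator of blood formation that is induced in denervated and injured muscle, Runx2 is the master factor of bone-forming cells, and Runx3 acts in T cells and sensory neurons. The ETO proteins do not bind DNA themselves and recruit co-repressors and histone deacetylases.

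The promoter sequences of the RUNX genes are shown first, because the annotated starts of Runx1 fell under peaks of different classes. The RefSeq promoter table (GRCm38.p6) held 9 starts for the 6 genes, each with a window of 300 bases (250 before the start and 50 after it). Start 1 of Runx1 and of Runx3 is the distal one and start 2 the proximal one. For Runx2 the table held 1 start only, so no second promoter of that gene was examined. The 250 bases before each Runx1 start are printed 5′ to 3′ in the direction of transcription. Capitals mark the ETS core CCGGAA, of which start 1 has none.
Runx1 start 1 upstream, chr16:92826075-92826324, minus strand: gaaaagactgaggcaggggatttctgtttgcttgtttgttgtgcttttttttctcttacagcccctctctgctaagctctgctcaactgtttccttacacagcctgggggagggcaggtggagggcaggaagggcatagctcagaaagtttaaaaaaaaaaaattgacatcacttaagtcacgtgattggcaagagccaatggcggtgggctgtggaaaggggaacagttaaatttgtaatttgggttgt
Runx1 start 2 upstream, chr16:92697330-92697579, minus strand: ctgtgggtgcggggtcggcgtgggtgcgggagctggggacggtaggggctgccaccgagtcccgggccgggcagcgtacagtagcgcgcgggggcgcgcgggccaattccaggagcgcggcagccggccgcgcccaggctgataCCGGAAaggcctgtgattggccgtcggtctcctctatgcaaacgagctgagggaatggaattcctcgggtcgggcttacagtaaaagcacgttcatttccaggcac
The distal window was 45% G and C and held 2 CG pairs, and the proximal window was 69% G and C with 35 CG pairs. Over all 32851 promoter windows the medians were 52.7% and 7. The ETS core of the proximal window lay at positions −106 to −101 from the start.

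Start 1 of Runx1, Runx2 and Runx3 had a sequence in common, shown here as 30 bases around it with the RUNX core ACCACA in capitals.
Runx1 site, chr16:92826025-92826054, minus strand: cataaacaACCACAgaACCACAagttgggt
Runx2 site, chr17:44814583-44814612, minus strand: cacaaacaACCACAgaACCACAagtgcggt
Runx3 site, chr4:135120503-135120532, plus strand: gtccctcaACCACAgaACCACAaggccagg
The run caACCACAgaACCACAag of 18 bases, with the RUNX core in tandem, was identical in the 3 genes. It stood at bases 27 to 44 after the start in Runx1, at 22 to 39 after it in Runx2 and at positions −136 to −119 in Runx3. Of the 32851 windows, 4 held this run, and the other was that of Gm16225, a gene model next to the first start of Runx3. The RUNX core (ACCACA or TGTGGT, both strands) occurred in 16.8% of all windows and at least 2 times in 1.81%. Among the 9 windows of the 6 genes it occurred in 3, with 2 matches at Runx1, 3 at Runx2 and 2 at Runx3, all at start 1. The ETS core (CCGGAA or TTCCGG) occurred in 2 of the 9 windows, Runx1 start 2 and Cbfa2t3 start 1, against 14.9% of all windows. The AP-1 motif TGANTCA was in 0 of the 9 (7.81% of all), and the E-box CAGCTG was in 1, Cbfa2t3 start 1 (16.3% of all). No match of a motif overlapped a match of another in these windows, and a match describes the sequence only.

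Chromatin at the distal start of Runx1 (chr16:92826074) lay under a peak in both lists. The WT peak at chr16:92825830-92826223 had a fold over local background of 6.46 and a −log10 q of 15.0. The KO peak at chr16:92825930-92826200 had a fold of 5.40 and −log10 q 10.6. Both measures were deposited by the authors peak by peak, are larger for a stronger peak, and rank peaks within a list only. The proximal start (chr16:92697329), 128.745 kb farther along the gene, was covered in the WT list alone. That WT peak, chr16:92697264-92697499, had a fold of 6.002, a −log10 q of 11.2 and a summit 77 bp before the start. It covered 220 of the 300 bases of the window, the ETS core included. No KO peak covered the proximal start, and the nearest, chr16:92696620-92696914, began 415 bp away inside the gene with a −log10 q of 21.7. That neighbouring peak was in the WT list too (chr16:92696576-92696925, −log10 q 29.1). KO calls are numbered along the chromosome, and 3 numbers were missing somewhere in the 13.329 kb between the KO peaks on either side, a stretch that also holds the WT-specific peak chr16:92705667-92705948. Over the whole KO list 55.6% of the call numbers were retained, so these missing numbers say nothing particular about the proximal start. The rule by which calls were removed is not given in the sources used here.

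The tandem RUNX sites lay inside a shared peak at all 3 genes. At the Runx2 start (chr17:44814627) the WT peak chr17:44814576-44815238 had a fold of 8.02 and a −log10 q of 10.9. The KO peak chr17:44814509-44815071 had a fold of 9.82 and −log10 q 16.9. By the gene table these peaks also lie inside the neighbouring gene Supt3, so they cannot be given to Runx2 alone. At Runx3 start 1 (chr4:135120645) the WT peak chr4:135120325-135120843 had a fold of 16.9 and −log10 q 60.7, and the KO peak chr4:135120374-135120717 had a fold of 10.1 and −log10 q 26.2. The proximal start of Runx3 (chr4:135152545) was covered in neither list, and the nearest WT peak lay 6536 bp away. At the Cbfb start (chr8:105170674) the WT peak chr8:105170400-105170687 had a fold of 14.9 and −log10 q 37.3, and the KO peak chr8:105170408-105170702 had a fold of 8.54 and −log10 q 15.3. At Cbfa2t2 (start chr2:154436484) the WT peak chr2:154436162-154436522 had a fold of 17.8 and −log10 q 45.4 and covered the start, and the KO peak chr2:154436153-154436450 had a fold of 16.1 and −log10 q 48.0 and ended 34 bp before it. The starts of Cbfa2t3 (chr8:122699109 and chr8:122678175) were covered in neither list.

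**Figure D1:**
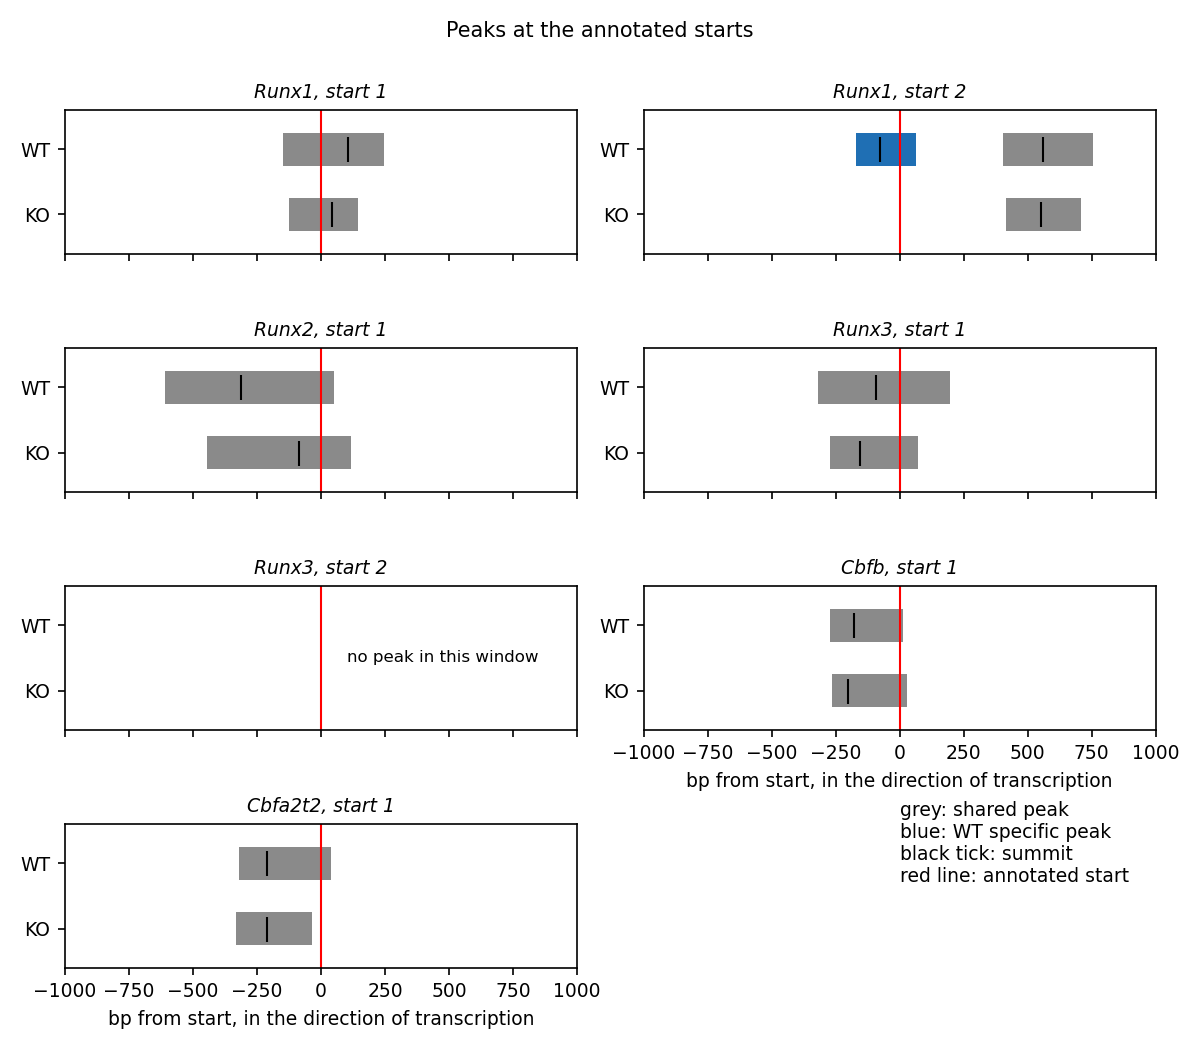
Peaks around the annotated starts of 5 genes, with the distance from the start in bp in the direction of transcription on the x axis and a bar for each peak of the WT and KO lists (grey shared, blue WT specific, tick at the summit). Runx1 start 2 has a blue WT bar over the start and no KO bar there, and Runx3 start 2 has no peak.

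The plot of peaks at the starts shows a shared peak at or beside start 1 of all 5 genes drawn, and a WT-specific peak at Runx1 start 2. Of 21045 annotated starts of protein-coding genes, 7703 lay under a WT peak, and 8.89% of these starts (685) lay under a WT-specific peak. Among 2761 genes with at least 2 starts, 1431 had a start under a WT peak. Of these 1431, 38 had 1 start under a shared peak and another under a WT-specific peak, and Runx1 is among the 38.

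Across the whole of the genes, the WT list held 49 peaks, of which 16 were WT specific and 33 overlapped a KO peak by at least 1 bp. The KO list held 35 peaks, of which 2 were KO specific and 33 overlapped a WT peak. The WT-specific share was 32.7% (exact Clopper-Pearson 95% interval 19.9% to 47.5%, counting error only), beside 27.3% of all WT peaks and 25.6% of WT peaks at protein-coding genes. The KO-specific share was 5.71% (0.700% to 19.2%), beside 9.59% of all KO peaks and 7.95% of KO peaks at protein-coding genes. Each interval holds the share of its whole list. Among peaks at or above the list median −log10 q, the WT-specific share was 4.76% (1 of 21), near the 6.17% of all such WT peaks. It rests on 1 peak, so no direction was read from it.

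**Figure D2:**
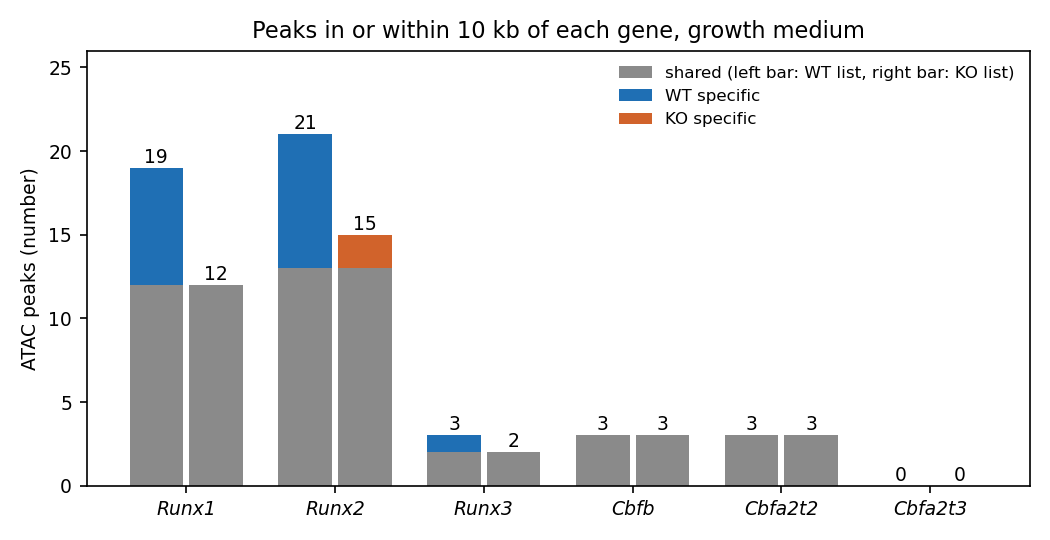
Number of peaks (y axis) in or within 10 kb of each of the 6 genes, with the WT list as the left bar and the KO list as the right bar of each pair (grey shared, blue WT specific, orange KO specific, total above the bar). Runx1 and Runx2 hold 15 of the 16 WT-specific peaks and Runx2 holds both KO-specific peaks. Of all 49 WT peaks Runx1 holds 19 and Runx2 holds 21.

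Shared and specific peaks alike were spread unevenly over the genes, as the bar plot of counts shows. Runx1 held 19 WT peaks with 7 WT specific and 12 KO peaks with 0 KO specific. Runx2 held 21 WT peaks with 8 WT specific and 15 KO peaks with 2 KO specific. Runx3 held 3 WT peaks with 1 WT specific and 2 KO peaks, both shared. Cbfb and Cbfa2t2 each held 3 WT and 3 KO peaks, all shared, and Cbfa2t3 held none in either list. At least 1 WT-specific peak stood at 3 of the 5 genes with a WT peak, the 3 RUNX genes, beside 39.1% of the 13970 protein-coding genes with a WT peak. A KO-specific peak stood at 1 of the 5 with a KO peak, beside 12.3% of genes with a KO peak.

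Gene length differed across the set. Runx1 (chr16:92601466-92826074, minus strand) spans 224.609 kb and Runx2 (chr17:44495987-44814797, minus strand) 318.811 kb, against 47.316 kb for Cbfb (chr8:105170674-105217989). Per 100 kb searched, Runx1 held 7.77 WT peaks, Runx2 6.20, Cbfb 4.46, Runx3 3.88, Cbfa2t2 2.43 and Cbfa2t3 none, and the median of protein-coding genes with a WT peak was 3.796. Of 21631 protein-coding genes, 23 held at least 7 WT-specific peaks, Runx1 included, and 14 held at least 8, Runx2 included. The rank by all WT peaks was similar. In that count 22 genes held at least as many as Runx1 and 11 at least as many as Runx2, each gene itself included. Among 997 genes within 1.5 times the length of Runx1 the medians were 3 WT peaks and 1 WT-specific peak. Of these genes 7, Runx1 included, held at least as many WT-specific peaks as Runx1. Among 670 genes of the length of Runx2 on the same rule, the medians were also 3 and 1. Of these 5, Runx2 included, held at least as many WT-specific peaks as Runx2. The share of WT peaks that was WT specific was 36.8% at Runx1, 38.1% at Runx2 and 33.3% at Runx3 (1 of 3). Beside these stood 27.3% of all WT peaks and 25.6% of WT peaks at protein-coding genes.

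Within Runx1 the 7 WT-specific peaks were scattered over the gene body. The distal end held chr16:92823510-92823868, 2.385 kb inside the gene from start 1, with a fold of 5.93 and a −log10 q of 12.6. Between the starts lay chr16:92783961-92784102 (−log10 q 5.91), chr16:92748364-92748579 (5.71) and chr16:92705667-92705948 (5.67). At the proximal start lay the peak described above. Beyond it lay chr16:92683952-92684156 (10.3) and chr16:92654635-92654968 (15.4), the latter with a fold of 8.26 and 515 bp from a peak of the KO list. The isolated one of the 7 was chr16:92748364-92748579, with the nearest KO peak 29.278 kb away and no KO call number missing beside it. The strongest shared peak, chr16:92777857-92778519, 47.886 kb inside the gene from start 1, had a fold of 12.9 and a −log10 q of 47.2 in the WT list and a fold of 11.5 and −log10 q 39.6 in the KO list. A further shared peak near the 3′ end, chr16:92620802-92621648, had a fold of 11.1 and −log10 q 44.4 in the WT list and a fold of 7.98 and −log10 q 29.1 in the KO list. Peak lists do not read out the edited allele or the Runx1 transcript.

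Runx2, which the knockout does not target, held specific peaks of both classes. Its 8 WT-specific peaks had a −log10 q from 4.70 to 15.7. The strongest was chr17:44653257-44653501 (fold 7.88, −log10 q 15.7), 924 bp from a KO peak. Next came chr17:44504874-44505261 (13.7), chr17:44618311-44618456 (10.4), chr17:44737894-44738319 (9.29) and chr17:44659840-44660365 (9.25). The weakest were chr17:44491612-44491935 (8.11, past the 3′ end), chr17:44527831-44528085 (5.82) and chr17:44588083-44588260 (4.70). The KO-specific peaks were chr17:44502031-44502373 (fold 3.65, −log10 q 6.54) and chr17:44555032-44555282 (fold 7.02, −log10 q 10.1), both in the gene body. The former lay 1205 bp from the strongest shared peak, chr17:44500321-44500826, which had a fold of 12.6 and −log10 q 55.8 in the WT list and a fold of 9.64 and −log10 q 44.6 in the KO list. Specific peaks of opposite class thus stood a few kilobases apart near the 3′ end of Runx2. Another strong shared peak, chr17:44654480-44654831, had a fold of 15.2 and −log10 q 44.3 in the WT list and a fold of 12.8 and −log10 q 37.8 in the KO list. Like the peak at the Runx2 start, the shared peak chr17:44776775-44777724 also lies inside Supt3, and it lies beside a start of that gene.

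**Figure D3:**
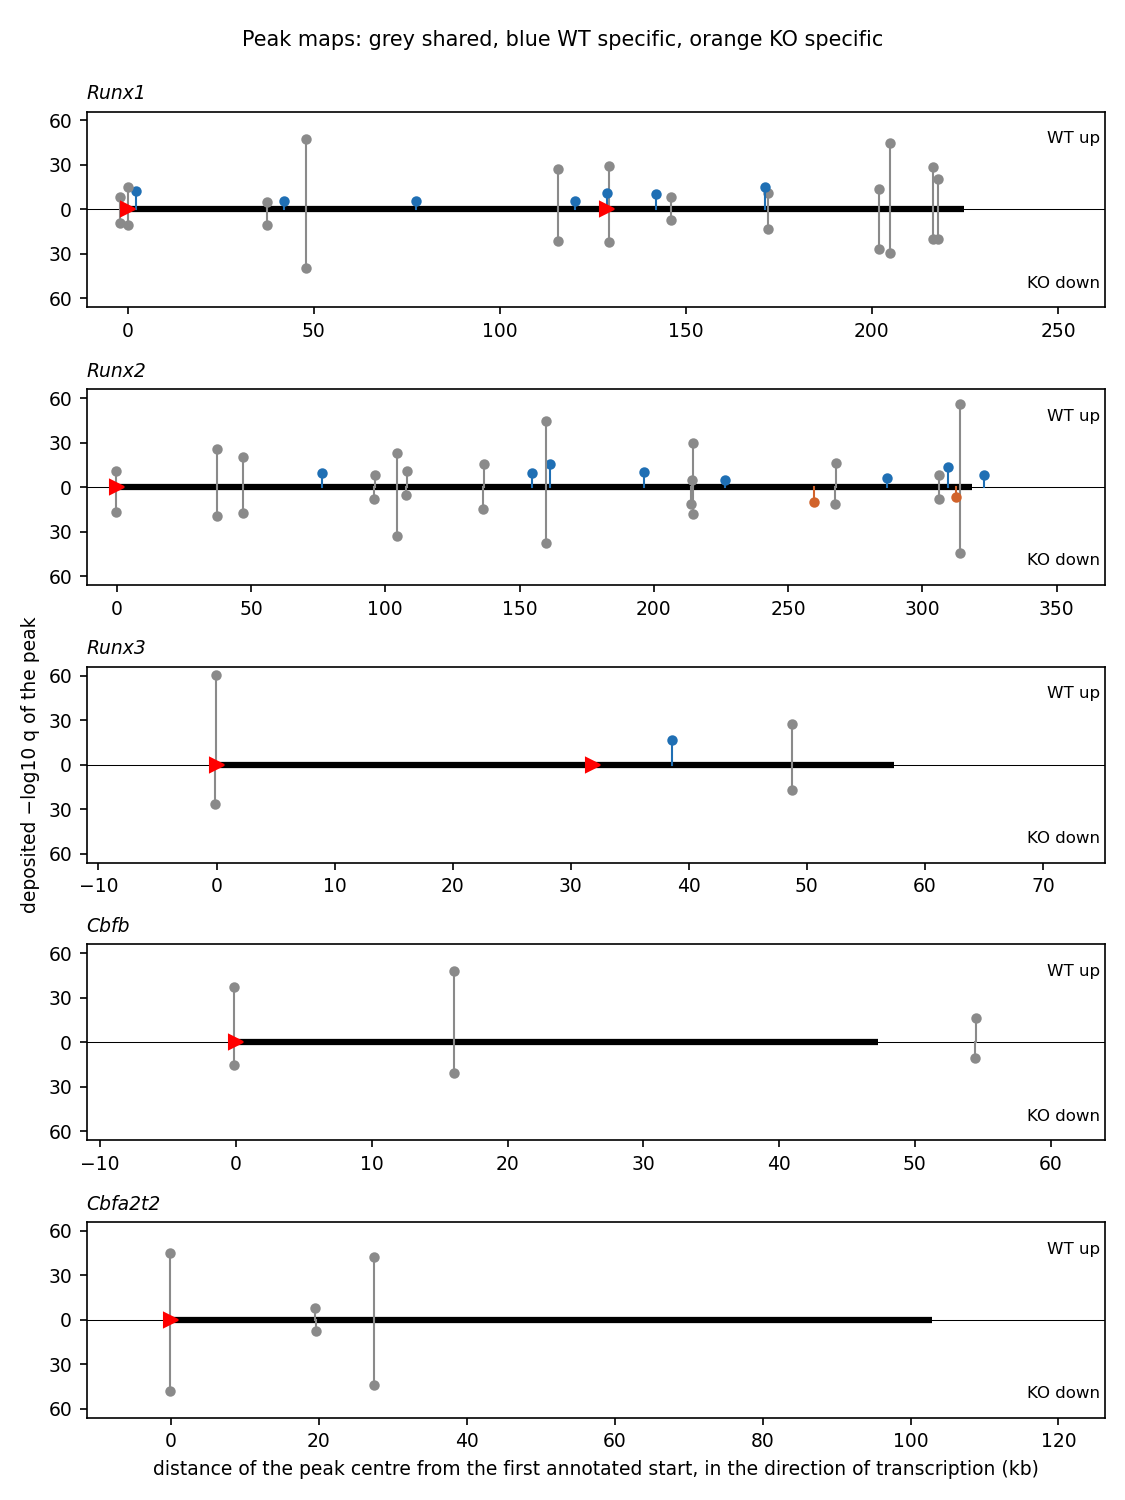
Peaks of 5 genes by distance of the peak centre from the first annotated start in kb (x axis, direction of transcription) and deposited −log10 q (y axis, WT list upward and KO list downward). The black bar is the gene body and red triangles are annotated starts. The blue WT-specific stems stay short, and the grey shared stems run from equally short to tall.

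In Runx3 (chr4:135120645-135177990, plus strand) the WT-specific peak chr4:135159081-135159418 lay 6704.5 bp after start 2, with a fold of 9.22 and a −log10 q of 16.5. The nearest KO peak was 9.729 kb away. The remaining shared peak, chr4:135169106-135169607, had a fold of 10.1 and −log10 q 27.4 in the WT list and a fold of 8.30 and −log10 q 17.3 in the KO list. Just outside the 10 kb limit, 13.6555 kb from Runx3, a shared peak at chr4:135191283-135192008 had a WT −log10 q of 75.9, and the last peak inside the limit, at Cbfb, lay 7.195 kb from its gene.

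Cbfb and Cbfa2t2 had 3 peaks in each list, as many as Runx3 had in the WT list, and none was specific. Cbfb had a gene-body peak at chr8:105186571-105186942 with a fold of 19.6 and a −log10 q of 48.3 in the WT list and a fold of 11.01 and −log10 q 21.0 in the KO list. Its peak past the 3′ end, chr8:105224811-105225557, had a fold of 10.1 and −log10 q 16.5 in the WT list and a fold of 7.48 and −log10 q 10.4 in the KO list and lies at a start of D230025D16Rik. Cbfa2t2 (chr2:154436098-154539356, plus strand) had chr2:154463817-154464081 with a fold of 19.3 and −log10 q 42.6 in the WT list and a fold of 17.0 and −log10 q 43.7 in the KO list. Its remaining peak, chr2:154455787-154456240, had a fold of 6.95 and −log10 q 8.23 in the WT list and a fold of 6.28 and −log10 q 7.15 in the KO list. Cbfa2t3 (chr8:122625136-122699332, minus strand) had no peak. The nearest, in Galns, lay 13.459 kb past its 3′ end (chr8:122611112-122611677, shared, WT −log10 q 39.8). Of 2878 genes within 1.5 times its length, 598 had no WT peak, Cbfa2t3 included. The maps of peaks by distance place these genes beside the RUNX genes on 1 scale of −log10 q.

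Specific peaks at these genes were among the weaker peaks of their list. In the WT list 28 member peaks were below the list median −log10 q of 16.1, and 15 of them were WT specific, against 48.5% of all WT peaks below it. At or above the median stood 21 member peaks, of which 1, in Runx3, was WT specific, against 6.17% of all. In the KO list 18 member peaks were below the median of 17.6 and 2 were KO specific, against 17.7% of all. None of the 17 at or above it was KO specific, against 1.45% of all. The 16 WT-specific peaks had a median −log10 q of 9.79 and a median width of 268.5 bp, and the 33 shared WT peaks had 20.7 and 381 bp. Over the whole WT list these medians were 8.38 and 250 bp for specific peaks and 21.1 and 424 bp for shared peaks. Of the 16, 15 lay in a gene body, as did 28 of the 33 shared WT peaks.

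**Figure D4:**
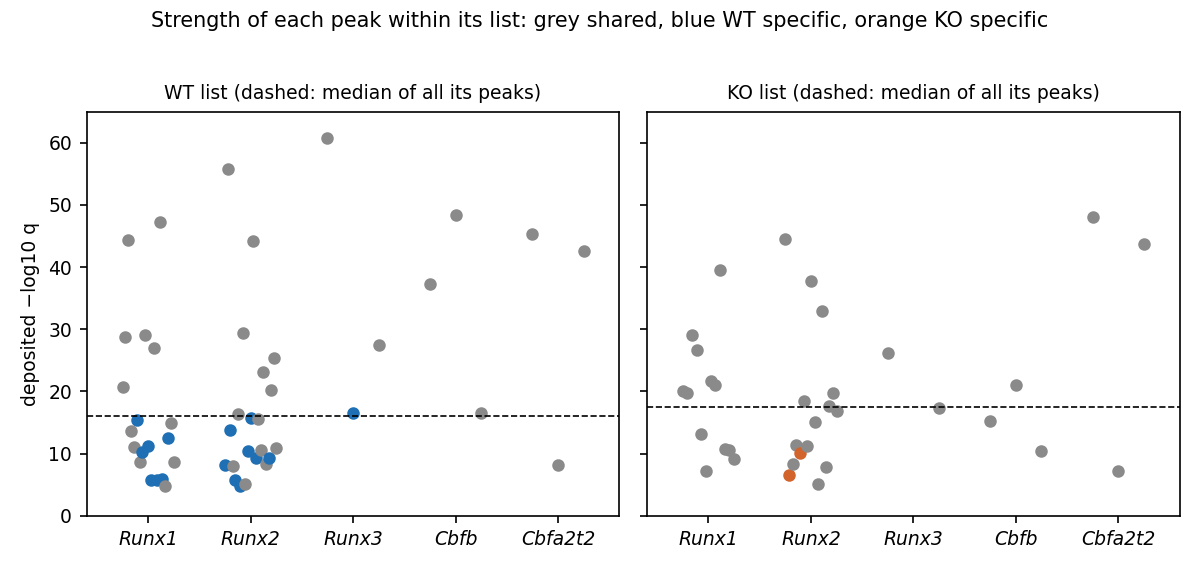
Deposited −log10 q (y axis) of each peak at 5 genes in the WT list (left) and the KO list (right), with the median of the whole list as a dashed line (grey shared, blue WT specific, orange KO specific). All blue points of Runx1 and Runx2 lie below the dashed line at 16.1, and the Runx3 point lies just above it at 16.5.

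The plot of strength by gene shows 13 Runx1 and 14 Runx2 peaks of the WT list below its median. Of these, 7 at Runx1 and 8 at Runx2 were WT specific, and the others were shared. Shared peaks of both genes thus lay on both sides of the median. Some WT-specific peaks stood close to a KO peak. Of the 16, 3 were within 1 kb of a KO peak, at 350 bp, 515 bp and 924 bp, which is 18.75% beside 7.51% of all WT-specific peaks. The median gap was 4682 bp beside 13755.5 bp for all, a difference that was not tested. The sets are unlike, since the whole list includes peaks away from genes, with gaps up to 5458787 bp. Runx1 and Runx2, where most of the 16 lay, held 7.77 and 6.20 WT peaks per 100 kb. The median of protein-coding genes with a WT peak was 3.796. KO call numbers were missing beside 14 of the 16 (87.5%), beside 87.1% of all WT-specific peaks.

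Genes that act with RUNX proteins were counted as 4 lists. A gene was counted as having a peak when either peak list held a peak there. Of all 21631 protein-coding genes, 13970 had a WT peak and 13157 had a KO peak. All 11 genes of the ETO family and of the co-repressors had a peak, 3 had a WT-specific peak and 2 a KO-specific peak, with 7 of 39 WT peaks (17.9%) and 2 of 33 KO peaks (6.06%) specific. Runx1t1, the ETO gene itself, held no WT peak and 1 KO-specific peak. All 7 co-activators and chromatin enzymes had a peak, with 4 of 16 WT peaks (25%) and 3 of 15 KO peaks (20%) specific. Kat6b, an acetyltransferase, held 1 WT-specific peak of 6 and 2 KO-specific peaks of 7. All 6 kinases, ligases and the isomerase had a peak, with 5 of 25 WT peaks (20%) and 1 of 21 KO peaks (4.76%) specific. Hipk2, a kinase that phosphorylates RUNX proteins, held 2 WT-specific peaks of 8 and 1 KO-specific peak of 7. Of the DNA-binding partners 6 of 6 had a peak, with 2 of 10 WT peaks (20%) and 1 of 9 KO peaks (11.1%) specific. Beside these, 25.6% of WT peaks and 7.95% of KO peaks at protein-coding genes were specific. At least 1 WT-specific peak stood at 39.1% of protein-coding genes with a WT peak, and a KO-specific peak at 12.3% of those with a KO peak. The median protein-coding gene with a WT peak held 2 WT peaks and 0 WT-specific peaks.

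The genes most like Runx1 in 3 counts over the 2 lists (shared WT peaks, WT-specific peaks and KO-specific peaks, Euclidean distance) were Zbtb7c at 0, Mast4 at 1 and Asap1 at 1.41. Zbtb7c held the same 12 shared and 7 WT-specific peaks. For Runx2 they were Msi2 at 2.24, and Zbtb7c and Runx1 at 2.45. Of the myoblast genes, Myod1, Des and Cdh15 each held 2 peaks in each list, none specific, and Myf5 held none. Cd3e, Alb and Epcam, genes of other lineages, held none in either list.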

How the data were processed

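ATAC-seq peak lists of WT and KO C2C12 cells in growth medium were used. The fold of each peak is a ratio over local background and its −log10 q is the peak caller's, both as deposited by the authors. The summit offset and an unnamed mark in the specific lists are further deposited columns. The build is mm10, per the submitters' processing notes. The aligner, peak caller and filters are not given in the sources used here. Read depth is unknown, so no interval from depth was possible. Peak classes are those of the deposited shared and specific lists, which equal an overlap of 1 bp for all 34118 WT peaks.

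Gene bodies, starts and promoter windows came from RefSeq GRCm38.p6, which is the same build as mm10. Strand came from the promoter table, and exons were not used. Coordinates are counted from 1. Promoter motifs were counted as exact letters on both strands. Sequence under other peaks was not analysed here. Medians, counts and exact Clopper-Pearson 95% intervals were computed with Python 3.11.15, numpy 2.4.6, pandas 2.3.3, scipy 1.17.1 and matplotlib 3.10.9. Overlap, gene assignment and missing call numbers were tested on simulated data.

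The members and gene lists were chosen with earlier results of these data known. Named were all 6 members, each of their specific peaks, the strongest shared peak, the peak nearest each start, list genes with at least 3 specific peaks and the 3 genes nearest Runx1 and Runx2 in peak counts. Some list genes are not reported here. Other strong shared peaks and Runx1t1 were chosen after their values were seen. Alternatives in gene distance, gene assignment, peak point, overlap, −log10 q and genes used were computed. No test was made, with 1 library per genotype.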

Additional observations from a re-analysis of the deposited data

How the results depend on the processing

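Of 44 alternative values of the totals and shares, 33 stayed within their limits and 11 moved. Restriction to peaks at or above the list median −log10 q left 1 WT-specific peak of 21 (4.76%) and 0 KO-specific of 17 (0%). A −log10 q of at least 10 left 8 WT-specific peaks of 34 (23.5%) and 1 KO-specific of 28 (3.57%). Both of these shares counted as within their limits. Without Runx1 there were 9 WT-specific peaks of 30. Without Runx2 there were 8 WT-specific peaks of 28 and 0 KO-specific of 20 (0%), since Runx2 holds both. A flank of 50 kb gave 4 KO-specific peaks of 48. The counts change with fewer or more peaks by construction, but a share need not. Of all WT peaks, 48.5% below the list median were WT specific, against 6.17% at or above it. Of all KO peaks, 17.7% below their list median were KO specific, against 1.45% at or above it. Of 216 counts at single genes, 190 stayed and 26 moved. With 50 kb, Runx3 held 7 WT peaks with 3 WT specific and Cbfa2t3 held 3 WT peaks. With all peaks the WT-specific share was 32.7%, beside 27.3% of the whole list. At or above the list median it was 4.76% (1 of 21) beside 6.17%, too few peaks to read a direction. No paired analysis was possible because each list holds 1 library, and for the same reason no replicate could be left out. Without depth, a peak absent from a list cannot be told apart from a peak below its threshold.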

Other observations

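The specific lists carry an unnamed mark on some rows. At these genes it stood on 2 of the 16 WT-specific peaks, chr16:92683952-92684156 in Runx1 and chr17:44659840-44660365 in Runx2, and on none of the 2 KO-specific peaks. Over the whole lists it stood on 993 of 9318 WT-specific peaks (10.7%) and on 58 of 2607 KO-specific peaks (2.22%). What the mark means is not given in the sources used here.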
